A study of Danio rerio with 61 samples.

Results

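Interferon-stimulated genes were followed in single adult zebrafish ventricles. The set consisted of 10 genes named by symbol, namely stat1a, stat1b, isg15, rsad2, mxa, irf1b, irf7, ifit8, ifit16 and ifi35. All 10 were present among the 32520 genes of the count table, and all 10 were among the 16890 genes that were tested. Interferons are cytokines released when a cell senses viral nucleic acid or damage. Their receptors act through JAK kinases and STAT proteins, which enter the nucleus with IRF proteins and switch on a large set of antiviral genes. In the injured heart, macrophages are known to be one of the cell types that run this programme.

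Wild-type fish of 7 strains were compared, namely AB, KCL (Kings College London), NA (Nadia), SAT (Sanger AB Tübingen), TL (Tupfel long fin), TU (Tübingen) and WIK (Wild India Kolkata). KCL was the house strain of the study and the others were brought in for it. All fish were adult and carried no transgene or mutation named in the labels. Hearts were either uninjured or collected 1 or 7 days after cryo-injury (dpci), in which the tip of the ventricle is frozen with a cold probe, and each library came from the whole ventricle of 1 fish, so that wounded and unwounded muscle were measured together. The stages held 21 uninjured hearts, 19 hearts at 1 dpci and 21 at 7 dpci. Each strain gave 3 hearts to a stage, but SAT and TU gave only 2 each at 1 dpci.

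Only the 3′ end of each mRNA was sequenced, so that long and short genes yield similar numbers of reads per transcript and their levels can be set side by side. Levels are given as CPM, that is, counts scaled to a common library size with TMM factors. Libraries held 2943684 to 5538019 counts, of which 991472 to 2146167 were not mitochondrial, and 1 count was worth between 0.148 and 0.383 CPM. The labelled tissue was checked against cardiomyocyte markers, of which 4 of 5 listed were in the table and whose summed level lay between 8126 and 26206 CPM in every library. Whole ventricles hold many cell types, and in such samples fewer cells of a type cannot be told apart from less RNA per cell.

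The strain names of NA and TU were not stable across stages. By their transcriptome, the 3 uninjured hearts titled NA resembled 7 dpci hearts titled TU most, and the 3 uninjured hearts titled TU resembled 7 dpci hearts titled NA most, whereas the 15 uninjured hearts of the remaining strains each resembled their own strain most. At 1 dpci, TU fish 54 was closest to TU among the 7 dpci groups (r = 0.45) and to NA among the uninjured groups (r = 0.34). TU fish 48 was closest to NA among the 7 dpci groups (r = 0.32, against −0.11 for TU) and to TU among the uninjured groups (r = 0.39). In addition, 6 libraries had a time label that differed from the title, among them uninjured TU fish 1, SAT fish 38 and TU fish 49. The title was used throughout.

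Individual fish also stood apart in the interferon-stimulated genes themselves. SAT fish 37 and TU fish 48, both at 1 dpci, had the highest isg15 of all 61 libraries. TU fish 48 ranked first for 5 of the 10 genes and among the top 2 for 7 of them. SAT fish 37 ranked first for 2 genes and among the top 2 for 6. These fish supplied 35.0% of all isg15 counts in the study, 36.4% of stat1b, 40.3% of mxa and 68.5% of ifit8, but 5.89% of stat1a. A further fish, uninjured AB fish 7, ranked first for irf1b and ifi35. Several averages over the strains at 1 dpci are therefore also given without SAT fish 37 and TU fish 48.

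**Figure D1:**
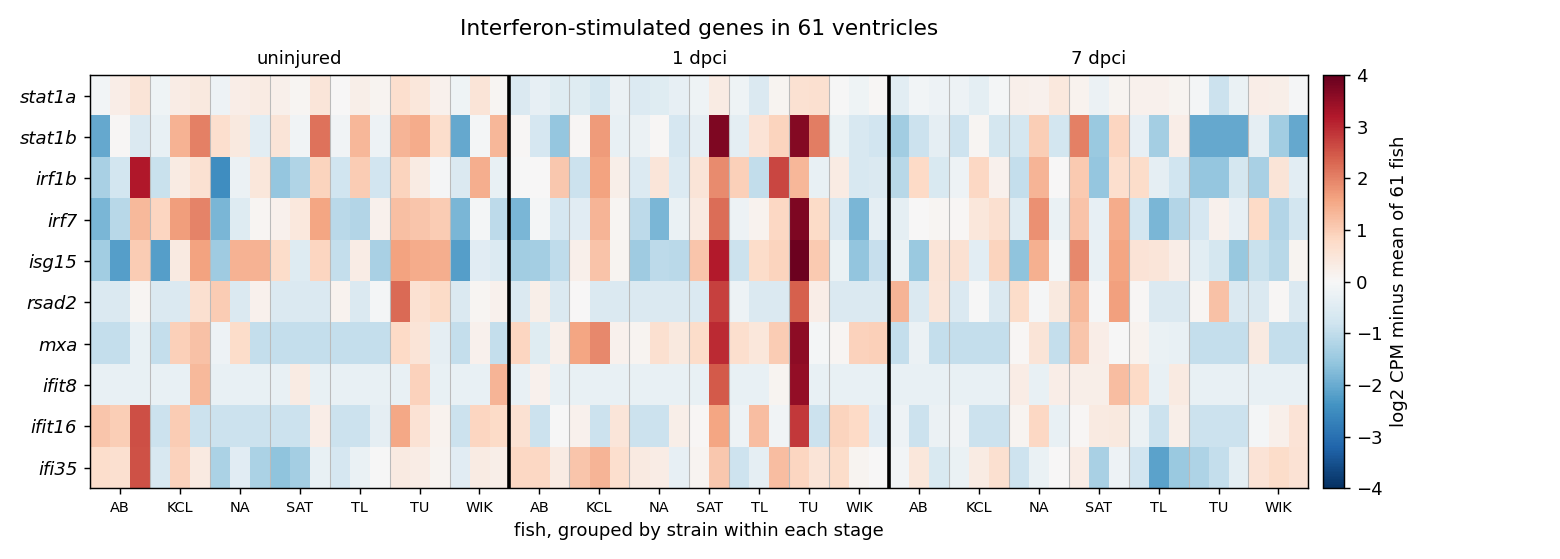
Level of the 10 interferon-stimulated genes (rows) in 61 fish (columns, by stage and strain), as log2 CPM minus the mean of the gene over all fish. The most intense columns are SAT fish 37 and TU fish 48 at 1 dpci, with isg15 at 20.0 and 34 CPM, and the dark cells of irf1b, ifit16 and ifi35 at the left belong to uninjured AB fish 7.

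stat1a (ENSDARG00000006266, GRCz11 chr22:12798569-12826962, plus strand) was by far the most abundant of the 10 genes and was found in all 61 libraries. In uninjured hearts its level ran between 81.3 and 150 CPM with a median of 111 CPM (n = 21), at 1 dpci between 57.5 and 148 CPM with a median of 79.4 CPM (n = 19), and at 7 dpci between 51.6 and 127 CPM with a median of 92.1 CPM (n = 21). The ranges overlapped widely, although the mean was lower at 1 dpci than in uninjured hearts in 6 of 7 strains, TU being the exception. Averaged over the strains, stat1a was lower at 1 dpci than in uninjured hearts by a log2 fold change of −0.36 (SE 0.088, adjusted p = 0.00127, edgeR quasi-likelihood F-test). Without SAT fish 37 and TU fish 48 the log2 fold change was −0.41 (adjusted p = 0.00103). At 7 dpci the log2 fold change against uninjured hearts was −0.26 (SE 0.085) and did not pass the test (adjusted p = 0.0561), although it passed when any of 7 single libraries was left out.

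stat1b (ENSDARG00000076182, chr9:41218967-41247197, plus strand) was much scarcer. It ran between 0 and 8.66 CPM in uninjured hearts with a median of 2.19 CPM, between 0.204 and 26.7 CPM at 1 dpci with a median of 1.25 CPM, and between 0 and 7.79 CPM at 7 dpci with a median of 0.713 CPM. The 1 dpci values were carried by few fish, since the highest level was 7.86 CPM among the 17 fish other than SAT fish 37 and TU fish 48, which had 26.7 and 25.6 CPM. The mean at 7 dpci was below that of uninjured hearts in 7 of 7 strains and below that at 1 dpci in 6 of 7. All 3 TU fish at 7 dpci had 0 counts.

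Because of that empty group the average over strains depends on how the model treats it. With 1 mean per strain and stage, stat1b was lower at 7 dpci than in uninjured hearts (log2 fold change −1.88, SE 0.48, adjusted p = 0.0093), but with 1 stage effect common to the strains the log2 fold change was −1.22 (SE 0.45) and did not pass (adjusted p = 0.111), nor did it without the NA and TU libraries (−1.16, adjusted p = 0.205). Against 1 dpci both fits placed it lower at 7 dpci, with log2 fold changes of −2.05 (SE 0.48, adjusted p = 8.3e-04) and −1.55 (SE 0.44, adjusted p = 0.0062). That difference held without SAT fish 37 and TU fish 48 (−1.34, adjusted p = 0.044), but not without the NA and TU libraries (−1.14, adjusted p = 0.115).

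**Figure D2:**
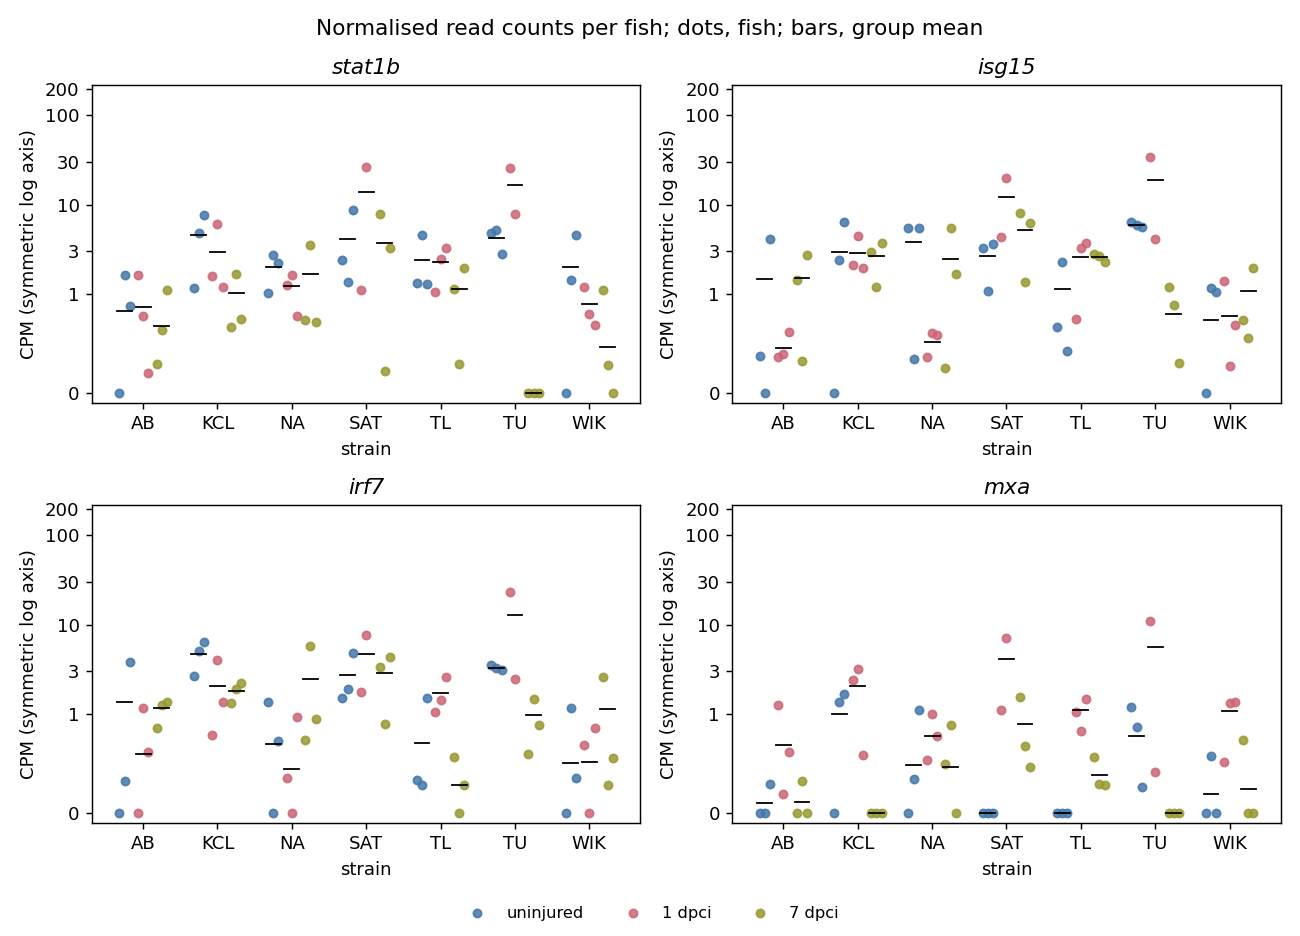
CPM of stat1b, isg15, irf7 and mxa (1 dot per fish, bars for group means, symmetric log axis that is linear below 1) in 7 strains by stage. In all panels the highest dots are at 1 dpci in SAT and TU, and mxa is at 0.194 CPM or more in every fish at 1 dpci, against 0 in every uninjured SAT and TL fish.

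irf1b and irf7 encode interferon regulatory factors, transcription factors that start and amplify interferon production. irf1b (ENSDARG00000043249, chr21:45626136-45633317, plus strand) was detected in all 61 libraries. Its level ran between 0.686 and 61.1 CPM in uninjured hearts with a median of 5.11 CPM, between 2.89 and 42.4 CPM at 1 dpci with a median of 7.25 CPM, and between 1.77 and 16.6 CPM at 7 dpci with a median of 4.73 CPM. The uninjured maximum was AB fish 7, whose AB companions had 2.2 and 3.54 CPM, and the 1 dpci maximum was TL fish 43, against 12.5 and 2.89 CPM in the other TL fish of that stage. The stages thus overlapped over most of their range. The log2 fold change was 0.30 (SE 0.33, adjusted p = 0.64) for 1 dpci against uninjured hearts and −0.72 (SE 0.34, adjusted p = 0.125) for 7 dpci against 1 dpci. They were −0.0017 (SE 0.38) and −0.41 (SE 0.37) without SAT fish 37 and TU fish 48.

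irf7 (ENSDARG00000045661, chr25:25546789-25550955, minus strand), the master regulator of type I interferon induction in mammals, gave 543 counts in all and was at 0 in 7 libraries. The median was 1.49 CPM in uninjured hearts (range 0 to 6.38 CPM), 1.04 CPM at 1 dpci (range 0 to 23.1 CPM) and 0.950 CPM at 7 dpci (range 0 to 5.76 CPM). TU fish 48 had 23.1 CPM and SAT fish 37 had 7.68 CPM, while the other 17 fish at 1 dpci did not exceed 3.97 CPM. No average stage difference passed the test, with log2 fold changes of 0.11 (SE 0.42) for 1 dpci and −0.27 (SE 0.41) for 7 dpci against uninjured hearts. The value at 1 dpci was −0.45 (SE 0.40, adjusted p = 0.54) without TU fish 48 and SAT fish 37.

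isg15 (ENSDARG00000086374, chr5:20112032-20113284, plus strand) encodes a ubiquitin-like protein that is coupled to other proteins during the antiviral response. It gave 826 counts in all and was found in 58 of 61 libraries. Its range was 0 to 6.41 CPM in uninjured hearts (median 2.29 CPM), 0.266 to 34 CPM at 1 dpci (median 1.38 CPM) and 0.247 to 8.01 CPM at 7 dpci (median 1.66 CPM). The mean at 1 dpci was 4.43 ± 8.43 CPM over 19 fish and 1.77 ± 1.60 CPM over the 17 fish other than SAT fish 37 and TU fish 48, against 2.67 ± 2.39 CPM in 21 uninjured hearts (SD). The log2 fold change of 1 dpci against uninjured hearts was 0.08 (SE 0.46) with all fish and −0.47 (SE 0.38) without those 2, and neither passed the test (adjusted p = 1.00 and 0.48).

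rsad2 (ENSDARG00000004952, chr17:35357451-35361322, minus strand), which encodes the antiviral enzyme viperin, was near the limit of detection, with 113 counts in all and none in 31 of 61 libraries. Its highest levels were 4.45 CPM in SAT fish 37 and 3.40 CPM in TU fish 48 at 1 dpci, followed by 3.09 CPM in uninjured TU fish 1. Its counts summed to 30 in 21 uninjured hearts, to 6 in the other 17 fish at 1 dpci and to 36 in 21 hearts at 7 dpci. With 1 stage effect common to the strains, its log2 fold change was −0.20 (SE 0.53) for 1 dpci and 0.17 (SE 0.68) for 7 dpci against uninjured hearts and did not pass (adjusted p = 0.83 and 0.95). In the fit with 1 mean per strain and stage, rsad2 passed for 7 dpci against 1 dpci only when SAT fish 37 was left out (log2 fold change 1.74, adjusted p = 0.047) or both SAT fish 37 and TU fish 48 (2.05, adjusted p = 0.0278). Every NA and WIK fish at 1 dpci was at 0, so that these sizes depend on the model.

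mxa (ENSDARG00000021688, chr1:7562316-7570181, minus strand) encodes a dynamin-like GTPase that blocks viruses, and among the 10 genes it had the lowest adjusted p at 1 dpci against uninjured hearts. It was at 0 in 12 of 21 uninjured hearts, in 0 of 19 hearts at 1 dpci and in 11 of 21 hearts at 7 dpci. At the same level a library at 0 is less likely at 1 dpci, where 1 count tended to be worth less CPM. It was worth 0.194 CPM in AB fish 22 at 1 dpci, against 0.291 CPM in uninjured AB fish 7. The level of mxa lay between 0 and 1.68 CPM in uninjured hearts (median 0 CPM), between 0.194 and 10.9 CPM at 1 dpci (median 1.04 CPM) and between 0 and 1.56 CPM at 7 dpci (median 0 CPM). The mean at 1 dpci was above both other stages in 7 of 7 strains, although the ranges overlapped. In TU the rise above uninjured hearts rested on fish 48 (10.9 CPM), since fish 54 had 0.413 CPM, against a mean of 0.772 CPM in uninjured TU. With 1 stage effect common to the strains, mxa was 4.92-fold higher at 1 dpci than in uninjured hearts (log2 fold change 2.30, SE 0.48, adjusted p = 1.2e-04) and 5.58-fold lower at 7 dpci than at 1 dpci (log2 fold change −2.48, SE 0.49, adjusted p = 6.7e-05). The fit with 1 mean per strain and stage gave 3.03 (SE 0.52) and −3.22 (SE 0.52), where uninjured SAT and TL and 7 dpci KCL and TU had 0 counts. The rise was also found without SAT fish 37 and TU fish 48 (2.22, SE 0.54, adjusted p = 0.00136), among the other 17 fish ranging between 0.194 and 3.18 CPM.

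The IFIT proteins bind foreign RNA through tetratricopeptide repeats. ifit8 (ENSDARG00000057173, chr13:17694845-17697158, plus strand) gave 73 counts in all, and it was at 0 in 17 of 21 uninjured hearts, in 15 of 19 hearts at 1 dpci and in 14 of 21 hearts at 7 dpci. Of its 52 counts at 1 dpci, 36 were in TU fish 48 and 14 in SAT fish 37. Its stage differences could not be resolved at this depth, with log2 fold changes of 0.79 (SE 0.88) for 1 dpci and −0.09 (SE 0.81) for 7 dpci against uninjured hearts under 1 common stage effect. With 1 mean per strain and stage the value at 1 dpci was −1.30 without TU fish 48 and SAT fish 37, with an SE that could not be estimated.

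ifit16 (ENSDARG00000056976, chr17:23598205-23603263, minus strand) gave 169 counts. Its level ran between 0 and 4.95 CPM in uninjured hearts (median 0.213 CPM), between 0 and 5.91 CPM at 1 dpci (median 0.436 CPM) and between 0 and 1.11 CPM at 7 dpci (median 0.287 CPM). The highest fish were TU fish 48 at 1 dpci and uninjured AB fish 7. It was lower at 7 dpci than at 1 dpci in the fit with 1 mean per strain and stage (log2 fold change −1.56, SE 0.57, adjusted p = 0.038). The call was lost with 1 common stage effect (−1.08, SE 0.58, adjusted p = 0.182), without TU fish 48 (−0.61, adjusted p = 1.00) and without the NA and TU libraries (−1.17, adjusted p = 0.174). In all, leaving out any of 15 single libraries ended it.

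ifi35 (ENSDARG00000075643, chr3:29941777-29948955, plus strand), an interferon-induced protein of the cytoplasm, was found in all 61 libraries. Its level ran between 1.50 and 35.2 CPM in uninjured hearts with a median of 5.55 CPM, between 2.97 and 15.4 CPM at 1 dpci with a median of 8.27 CPM, and between 0.887 and 9.76 CPM at 7 dpci with a median of 4.65 CPM. The mean at 1 dpci was above that of uninjured hearts in 6 of 7 strains, with AB as the exception. ifi35 was 1.51-fold higher at 1 dpci than in uninjured hearts (log2 fold change 0.60, SE 0.19, adjusted p = 0.0139) and 1.87-fold lower at 7 dpci than at 1 dpci (log2 fold change −0.90, SE 0.19, adjusted p = 2.9e-04). The second difference also passed with 1 common stage effect (−0.81, adjusted p = 0.0061) and without SAT fish 37 and TU fish 48 (−0.76, adjusted p = 0.0064). The first did not, with 0.48 (adjusted p = 0.112) and 0.46 (adjusted p = 0.113), nor did it pass without TL fish 43 alone (0.46, adjusted p = 0.055) or without NA and TU (0.50, adjusted p = 0.128).

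Counted together, 3 of the 10 genes passed for 1 dpci against uninjured hearts, where 28.3% of all 16890 genes passed. mxa and ifi35 were higher and stat1a was lower. At 7 dpci against uninjured hearts, stat1b alone passed, and it was lower, where 6.16% of all genes passed, 4.46% higher and 1.71% lower. Against 1 dpci, 4 genes passed at 7 dpci, namely stat1b, mxa, ifit16 and ifi35, all lower, where 22.9% of all genes passed in either direction and 12.4% were lower. At 1 dpci the share of these genes past the test was thus close to that of all genes. With 1 stage effect common to the strains 2, 0 and 3 of the 10 genes passed in these comparisons, where 29.2%, 5.32% and 23% of all genes did. The stage comparisons share their samples, so that a high value at 1 dpci enters the first and the third with opposite signs.

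These calls differed in DESeq2 with RUVg. The RUVg factor is a correction for unwanted variation estimated from the counts. With 1 such factor 103 genes in all passed for 1 dpci against uninjured hearts and 164 for 7 dpci against 1 dpci. Without it 4875 and 4016 passed in DESeq2, and 4773 and 3870 in edgeR. How much of the stage difference the factor took up was not tested. Of the interferon-stimulated genes, 1 and 0 passed with the factor, namely irf1b with a log2 fold change of −2.74 (adjusted p = 0.0485). The log2 fold change of mxa at 1 dpci was 0.07 (adjusted p = 0.99). However, rsad2, ifit8 and ifit16 were given no adjusted p in these comparisons, nor was mxa at 7 against 1 dpci. Such genes are counted as not passing.

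**Figure D3:**
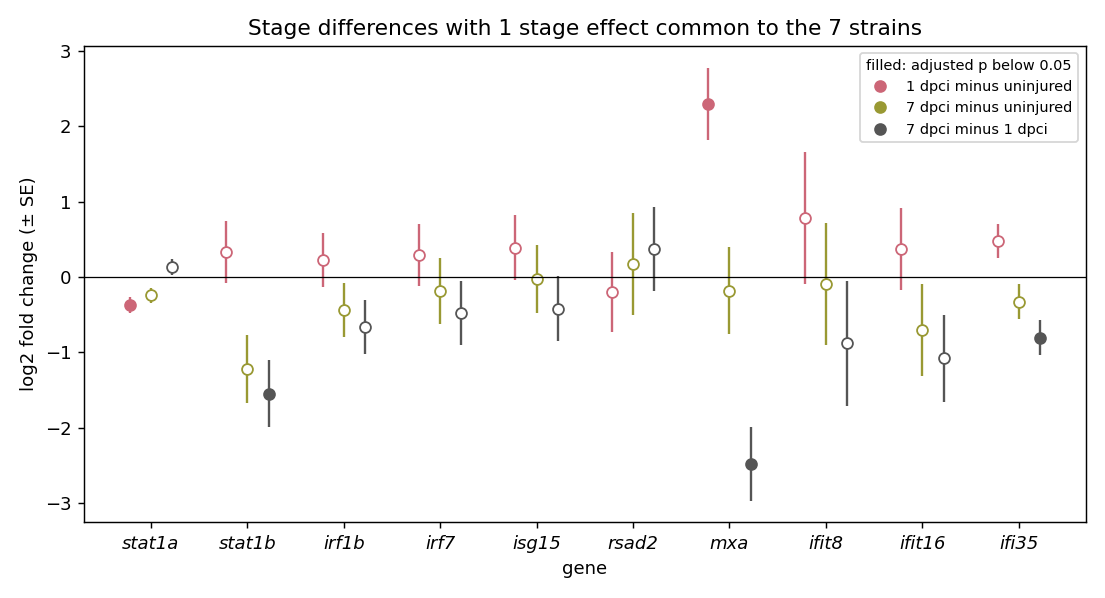
Log2 fold change (± SE) of each gene between stages, from the fit with 1 stage effect common to the 7 strains, with filled dots for adjusted p below 0.05. mxa stands out with 2.30 for 1 dpci against uninjured hearts and −2.48 for 7 dpci against 1 dpci, and the SE of ifit8 and rsad2 reach 0.88 and 0.68.

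The wider interferon pathway was described with 10 lists from ligands to effectors, which include the genes above. Of 136 listed genes, 110 were in the table and 92 were tested. At 1 dpci against uninjured hearts 20 of the 92 were higher and 3 were lower, where 16.2% of all genes were higher and 12.1% were lower. At 7 dpci against 1 dpci 1 was higher and 30 were lower, where 10.5% of all genes were higher and 12.4% were lower. Many of these calls rested on SAT fish 37 and TU fish 48. Without them 16 of the 92 were higher and 2 lower at 1 dpci against uninjured hearts, where 12.3% of all genes passed in each direction. At 7 against 1 dpci 2 were then higher and 13 lower, where 10.7% and 8.65% of all genes were, and 14 of the 31 genes called with all fish were among them. The median log2 fold change of the 92 genes was 0.34 for the first comparison and −0.59 for the second with 1 common stage effect, against 0.04 and −0.01 for all genes. At 7 dpci against uninjured hearts only stat1b passed, and the median was −0.13 against 0.02 for all genes.

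By role, the lowest adjusted p among the 2 interferons and 5 receptors tested was 0.067 in edgeR, for the receptor gene crfb1 at 7 against 1 dpci, and 0.051 for the same gene with 1 common stage effect, so that none of them passed. Of 8 JAK-STAT transducers, the kinase genes jak1 (log2 fold change 0.94, SE 0.12) and tyk2 (0.97, SE 0.19) had raised levels at 1 dpci, and stat1a was lower. In that comparison with uninjured hearts 16.2% of all genes were higher and 12.1% were lower. Of 9 regulatory factors, irf8 (2.01, SE 0.45), irf5 (1.58, SE 0.43) and irf2a (0.46, SE 0.17) were higher, irf2a not without SAT fish 37 and TU fish 48 (0.40, adjusted p = 0.117). Of 9 negative regulators, 1 was lower, and the phosphatase gene ptpn6 (2.53, SE 0.23) and the cytokine-signalling suppressors socs3b (1.50, SE 0.37) and socs3a (1.39, SE 0.31) were higher. With 1 common stage effect socs3a did not pass (0.97, adjusted p = 0.106). Of 13 sensors and adaptors, sting1 was higher (2.30, SE 0.43) and the mitochondrial adaptor gene mavs was lower (−0.68, SE 0.092), while ikbke was lower at 7 than at 1 dpci (−0.63), but not without those fish (−0.50, adjusted p = 0.132). At 7 against 1 dpci 4 transducers, 3 regulatory factors, 2 negative regulators and 3 sensors or adaptors were lower, and 1 sensor or adaptor was higher. Of all genes 12.4% were lower and 10.5% were higher there. ptpn6, irf8 and irf5 are known to be strongly expressed in myeloid cells.

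At 1 dpci against uninjured hearts 16.2% of all genes were higher, the share to set beside the counts of each family. Of 6 Mx genes, mxa and mxc (2.09, SE 0.71) exceeded the uninjured level at 1 dpci. All 6 had groups at 0 counts. With 1 common stage effect 4 passed, mxb (2.10, SE 0.74) and mxf (2.23, SE 0.74) in addition, where 29.2% of all genes passed in either direction. Neither mxb nor mxf passed with 1 mean per strain and stage. Without SAT fish 37 and TU fish 48 that fit gave −0.13 for mxb and 2.21 for mxf, with an SE that could not be estimated. Of 6 IFIT genes ifit11 was higher (0.95, SE 0.35), but not without SAT fish 37 and TU fish 48 (0.73, adjusted p = 0.20). Of 31 further effectors 8 were higher and none was lower, led by lgals3bpb (2.55, SE 0.45) and the guanylate-binding protein gene gbp1 (1.67, SE 0.25), and 5 were higher without those fish. At 7 dpci, 13 of these 31 effectors were lower than at 1 dpci, where 12.4% of all genes were lower. Lower genes included uba7, the enzyme that activates ISG15 for coupling (−1.07, SE 0.33), and helz2a (−1.67, SE 0.59). helz2a had 4 groups at 0 counts and did not pass with 1 common stage effect (−1.22, adjusted p = 0.123). When SAT fish 37 and TU fish 48 were left out, 5 of the effectors were lower, and uba7 (−0.18, adjusted p = 1.00) and helz2a (−1.63, adjusted p = 0.052) did not pass.

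The summed level of 7 macrophage markers moved with these stages. It ran between 13.1 and 152 CPM in uninjured hearts (median 22.8 CPM), between 32.0 and 472 CPM at 1 dpci (median 119 CPM) and between 29.6 and 188 CPM at 7 dpci (median 76.2 CPM). The 5 neutrophil markers had medians of 3.83, 12.6 and 5.07 CPM at these stages. The cardiomyocyte markers had medians of 21295, 12646 and 17126 CPM. The part of cell composition in the levels of the interferon-stimulated genes was not tested.

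Differences between strains were examined at each stage by an F-test over the 7 strain means. In uninjured hearts 2 of the 10 genes passed, ifi35 (adjusted p = 2.5e-04) and ifit16 (adjusted p = 0.044), where 13.1% of all genes passed. The call of ifit16 was lost when any of 13 single libraries was left out, and that of ifi35 with none. AB had the highest level of both. ifi35 was at 9.55, 9 and 35.2 CPM in the 3 AB fish, against 1.50 to 11.0 CPM in the other 18 uninjured fish, and it was 3.89-fold higher in AB than in the mean of the other strains (log2 fold change 1.96, SE 0.33, adjusted p = 1.9e-04), where 1.21% of all genes were higher. ifit16 was at 1.47, 1.29 and 4.95 CPM in AB, against 0 to 2.14 CPM in the others (log2 fold change 3.27, SE 0.83, adjusted p = 0.025, with every uninjured NA fish at 0). Both differences rested on AB fish 7, without which the log2 fold changes were 1.00 (adjusted p = 0.39) and 2.37 (adjusted p = 0.46). That fish also had the highest summed neutrophil markers (19.8 CPM) and epicardial markers (69.0 CPM) of the uninjured fish, and its macrophage markers were at 22.4 CPM, near the median. Their part was not tested.

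Over all comparisons of a strain with the mean of the others, 13 of 210 tests of the 10 genes passed (6.19%), against 2.93% of the tests of all genes, and each of the 13 was lost when some single library of that strain was left out. Uninjured TU fish had the highest rsad2, with 3.09, 0.654 and 0.771 CPM, against 0 to 1.03 CPM in the other uninjured fish (log2 fold change against the mean of the other strains 3.14, SE 0.88, adjusted p = 0.039), where 2.2% of all genes were higher. Without TU fish 1 it was 2.10 (adjusted p = 0.46), and without TU fish 3 it was 3.45 (adjusted p = 0.061). Every uninjured SAT fish had 0 counts of rsad2, so that these sizes depend on the model. isg15 was also high in all 3 uninjured TU fish, with 6.41, 5.88 and 5.65 CPM, while 2 of the 3 uninjured NA fish had 5.46 and 5.48 CPM and the third had 0.343 CPM. The F-test over strains did not pass for isg15 at this stage (adjusted p = 0.174), but it did without AB fish 7 (adjusted p = 0.041).

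At 1 dpci 6 genes passed the F-test over strains, where 11.4% of all genes passed. They were isg15 (adjusted p = 8.9e-06), irf7 (adjusted p = 1.0e-04), stat1b (adjusted p = 1.7e-04), rsad2 (adjusted p = 0.00266), stat1a (adjusted p = 0.00407) and ifit8 (adjusted p = 0.0105). When SAT fish 37 and TU fish 48 were left out only stat1a passed (adjusted p = 0.036), and the value of isg15 was 0.052. The groups of SAT and TU then hold 1 fish each, which is assumed to vary like the fish of the other groups.

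TU was the strain with the most differences at 1 dpci. All 6 genes were higher in TU than in the mean of the other strains, where 2.24% of all genes were higher. Their log2 fold changes ran between 0.88 for stat1a (SE 0.19) and 5.27 for ifit8 (SE 1.06). Every NA and WIK fish at 1 dpci had 0 counts of ifit8 and of rsad2, and every KCL fish had 0 of ifit8. The sizes for both genes thus depend on the model. The 2 TU fish did not resemble each other, however. Over all genes, TU fish 48 was closest to NA among the 7 dpci groups and TU fish 54 to TU. A difference between strains thus cannot be told apart from one between these fish. isg15 was at 34 CPM in TU fish 48 and at 4.13 CPM in TU fish 54, stat1b at 25.6 and 7.86 CPM, irf7 at 23.1 and 2.48 CPM, and ifit8 at 6.44 and 0 CPM. Of these 6 genes only stat1a was close in both, with 144 and 148 CPM, against 57.5 to 119 CPM in the other 17 fish at 1 dpci. Without TU fish 48 and SAT fish 37, stat1a alone was called higher in TU (log2 fold change 1.01, SE 0.26, adjusted p = 0.018). Without TU fish 54 alone, with TU fish 48 and SAT fish 37 kept, the log2 fold change of stat1a was 0.87 and the call was lost.

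SAT showed the same division. stat1b, isg15 and rsad2 were higher in SAT than in the mean of the other strains at 1 dpci (log2 fold changes 2.66, 2.78 and 4.25), where 0.995% of all genes were higher. SAT fish 37 had 26.7, 20.0 and 4.45 CPM of these genes, and SAT fish 36 had 1.09, 4.36 and 0 CPM. With fish 36 alone the log2 fold changes were −0.98 for stat1b, 1.31 for isg15 and −1.94 for rsad2. However, rsad2 had 0 counts in SAT fish 36 and in every NA and WIK fish at 1 dpci. Its values of 4.25 and −1.94, and the sign of the second, thus depend on the model.

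SAT fish 37 and TU fish 48 had 3549367 and 3653213 counts, and their summed macrophage markers of 130 and 154 CPM had ranks 9 and 5 among the 19 fish at 1 dpci. Neutrophil markers were at 24 and 7.69 CPM, T and NK cell markers at 0 CPM, the lowest of the 19 fish, and 1.43 CPM, and the tested B cell marker at 0 CPM in both. The part of cell composition was not tested.

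At 7 dpci ifi35 alone passed the F-test over strains (adjusted p = 0.033), where 13.5% of all genes passed. Its level was 8.44, 9.76 and 8.65 CPM in WIK and 3.08, 0.887 and 1.69 CPM in TL, the strains with the highest and the lowest mean. The call was lost when any of 8 single libraries was left out. stat1b was higher in SAT than in the mean of the other strains (log2 fold change 2.84, SE 0.72, adjusted p = 0.015), where 2% of all genes were higher. It was at 7.79, 0.223 (1 count) and 3.23 CPM in the 3 SAT fish, against 0 to 3.54 CPM in the other strains. All 3 TU fish at 7 dpci had 0 counts, so that the size of this difference depends on the model. The difference did not pass without SAT fish 38 (1.73, adjusted p = 0.48) or without SAT fish 40 (2.94, adjusted p = 0.0502). The time label of SAT fish 38 differed from its title and gave the earlier injured stage.

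**Figure D4:**
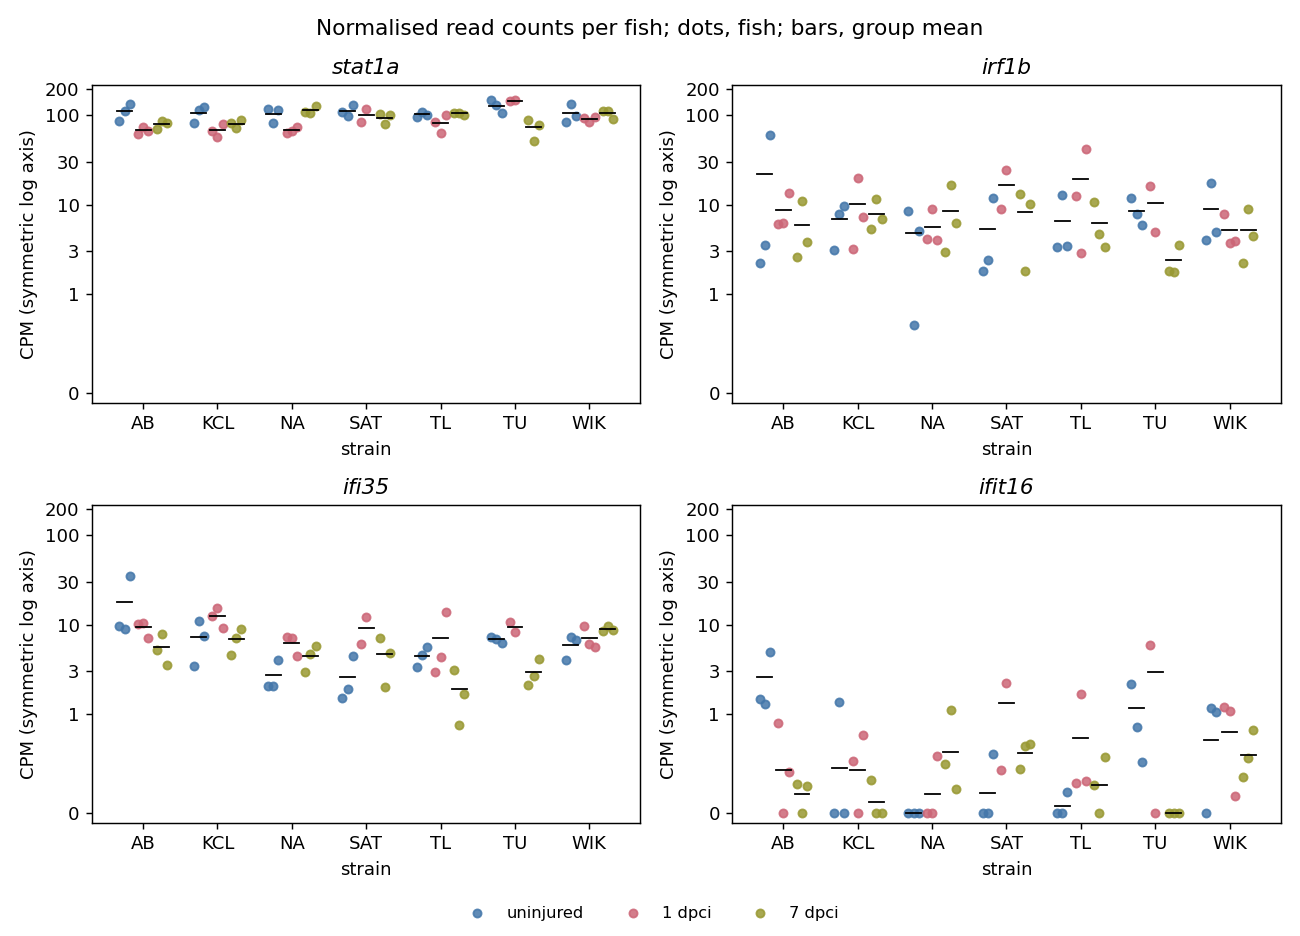
CPM of stat1a, irf1b, ifi35 and ifit16 (1 dot per fish, bars for group means, symmetric log axis that is linear below 1) in 7 strains by stage. stat1a lies between 51.6 and 150 CPM in every fish, and single fish such as uninjured AB fish 7 (61.1 CPM of irf1b) set the mean of their group.

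Over the stage comparisons within each strain, 11 of 210 tests of the 10 genes passed (5.24%), against 2.94% of the tests of all genes. Each of the 11 was lost when some single library of its groups was left out. In AB, stat1a was lower at 1 dpci than in uninjured hearts (log2 fold change −0.72, SE 0.23, adjusted p = 0.044), where 2.27% of all genes were lower. In NA it was higher at 7 than at 1 dpci (0.74, SE 0.23, adjusted p = 0.039), where 2.45% were higher. In TL, ifi35 was lower at 7 than at 1 dpci (−1.89, SE 0.54, adjusted p = 0.035), where 2.12% were lower, but not without TL fish 43 (−0.92, adjusted p = 0.54). In SAT, mxa was higher at 1 dpci (adjusted p = 0.0094), where 2.01% were higher, with 1.09 and 7.07 CPM against 0 in all 3 uninjured fish, which makes its mean at least 4.71-fold higher at a floor of 3 counts per library. Without SAT fish 37 that call was lost (adjusted p = 0.176).

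The other 7 calls were in TU, and all were lower at 7 dpci. stat1a was at 89.5, 51.6 and 78.9 CPM in TU at 7 dpci, against 150, 131 and 107 CPM in uninjured TU hearts (log2 fold change −0.82, SE 0.23, adjusted p = 0.027). stat1b was at 0 in all 3 fish, against 4.75, 5.23 and 2.83 CPM in uninjured TU hearts, that is, at least 4.79-fold lower in the mean (adjusted p = 0.0136), where 1.68% of all genes were lower. Against 1 dpci, stat1a, stat1b, isg15, mxa and irf7 were lower at 7 dpci, where 1.08% of all genes were lower, and stat1b was at least 18.8-fold lower in the mean. Without TU fish 48, 4 of those 5 calls had an adjusted p of 0.29 or more, and that of stat1b was 0.10. Without both TU fish 48 and SAT fish 37 stat1b passed, but in a fit with normalization and dispersion estimated anew. The comparison itself holds no SAT fish, and only 1 TU fish was then left at 1 dpci. Since uninjured TU and TU fish 48 resembled NA at 7 dpci over all genes, a response to injury and a difference between strains cannot be told apart in these comparisons.

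The test of whether stage differences varied between strains passed for isg15 alone (adjusted p = 0.0419), where 3.77% of all genes passed. By unadjusted p below 0.05 it was 9 of 10 genes, where 16.8% of all genes passed. The names of NA and TU were not stable across stages, so injury and strain cannot be told apart in these strains. Without NA and TU 0.0651% of all genes passed by adjusted p. The call of isg15 was lost without SAT fish 37 and TU fish 48 (adjusted p = 0.23) and without NA and TU (adjusted p = 0.77), and when any of 20 single libraries was left out, with the highest value without TU fish 48 (0.118). In the group means of isg15, SAT, TL, TU and WIK were higher at 1 dpci than uninjured and AB, KCL and NA were lower. The means were nearly equal in WIK (0.777 and 0.736 CPM) and KCL (2.86 and 2.93 CPM). In TU the higher mean rested on fish 48 (34 CPM), since fish 54 had 4.13 CPM, against 5.65 to 6.41 CPM in uninjured TU fish. In AB the uninjured fish had 4.08 CPM (fish 7), 0.367 and 0 CPM. NA fish had 0.357, 0.604 and 0.579 CPM at 1 dpci against 5.46, 0.343 and 5.48 CPM uninjured.

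Among themselves the genes tended to be high in the same fish. Pearson's r of log2 CPM over 61 libraries was above 0 in 45 of 45 pairs, with a median of 0.42, and the highest was 0.72 for isg15 and irf7. Without SAT fish 37 and TU fish 48 the median was 0.26 and 41 of 45 pairs were above 0, with isg15 and irf7 at 0.63. irf1b and ifi35 formed another close pair, with 0.58 over all libraries and 0.56 without those fish. These values share library depth and strain and are given as a description.

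Over all genes tested, those most like isg15 across the 61 libraries were irf7 (r = 0.72), stat1b (0.68) and stat2 (0.67). The closest to stat1b were wu:fj29h11 (0.84), zgc:152658 (0.77) and stat2 (0.76), which stayed at 0.77, 0.66 and 0.66 without SAT fish 37 and TU fish 48. The closest to irf1b were si:dkey-23i12.7 (0.69), si:ch211-245h14.1 (0.66) and si:ch211-183d5.2 (0.65). The closest to ifit16 were ponzr1 (0.52), lgals17 (0.49) and ifi35 (0.48), which were at 0.41, 0.25 and 0.45 without SAT fish 37 and TU fish 48.

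ifit16 lies 836 kb from mdh1ab (ENSDARG00000103849, chr17:24439532-24444402, plus strand), a gene for cytosolic malate dehydrogenase that the annotation lists as a polymorphic pseudogene, with 13 genes of the file between them. mdh1ab differed sharply between groups. It was at 96.3 to 135 CPM in NA at 7 dpci, against 6.57 to 7.89 CPM in uninjured NA fish, and at 4.79 to 6.19 CPM in TU at 7 dpci, against 33.1 to 53.9 CPM in uninjured TU. Over all genes, uninjured NA resembled TU at 7 dpci, and uninjured TU resembled NA at 7 dpci. A response to injury and a difference between strains therefore cannot be told apart in these values. ifit16 was at 0 in the 3 uninjured NA fish and in the 3 TU fish at 7 dpci. It was also at 0 in fish with more mdh1ab. In uninjured TL, mdh1ab was at 58.7 to 87.4 CPM and ifit16 was at 0 in 2 of 3 fish. At 1 dpci, NA fish 28 and 29 had 29.6 and 45.1 CPM of mdh1ab, with ifit16 at 0. In SAT, uninjured fish had 6.87 to 13.5 CPM of mdh1ab, with ifit16 at 0 in 2 of 3 and at 0.597 CPM in the third. At 1 dpci SAT fish 37 had 25.7 CPM of mdh1ab and 2.22 CPM of ifit16, and SAT fish 36 had 4.58 and 0.436 CPM. At 7 dpci mdh1ab was as low, at 4.92 to 7.61 CPM, but ifit16 was found in all 3 fish at 0.445 to 0.692 CPM, which is 2 to 3 counts.

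Over the 61 libraries Pearson's r between ifit16 and mdh1ab was 0.33 in log2 CPM and Spearman's rho was 0.34. After the mean of each strain and stage was subtracted, r was 0.60 and rho was 0.44. Of the 13 genes between them 0 had a higher r with mdh1ab, the closest being pex13 with 0.29, while 505 of the 16889 other tested genes had a higher r. With the group means subtracted 4 did. The pair was chosen for its position and for this relation among fish, so these ranks are not independent evidence. Leaving out SAT fish 37 and TU fish 48 gave an r of 0.37, and 0.41 with group means subtracted. The relation weakened without the NA and TU libraries, to 0.17 and 0.46. Other members in the place of ifit16 gave −0.25 for isg15, −0.12 for stat1b and 0.13 for irf1b. With 169 counts of ifit16 in all, 22 libraries at 0 and strains shared among the points, these values are a description without a test.

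The 2 fish with the highest isg15 also differed from their own groups in mdh1ab. TU fish 48 had 44.7 CPM, against 5.38 CPM in TU fish 54. That value lay within the 33.1 to 53.9 CPM of uninjured TU and above the 4.79 to 6.19 CPM of TU at 7 dpci. SAT fish 37 had 25.7 CPM, against 4.58 CPM in SAT fish 36 and 4.92 to 13.5 CPM in SAT at the other stages. Fish of a group also differed in mdh1ab where isg15 was lower. Uninjured KCL fish had 29.9, 145 and 7.05 CPM of mdh1ab, with isg15 at 0, 2.42 and 6.38 CPM.

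**Figure D5:**
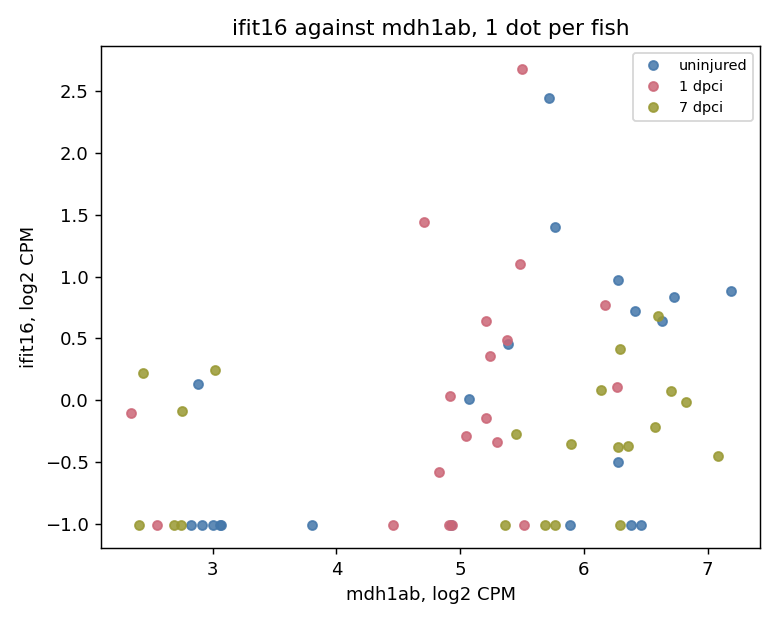
Log2 CPM of ifit16 against that of mdh1ab, with 1 dot per fish coloured by stage. The row of dots at the bottom holds the 22 fish with 0 counts of ifit16, and the 2 highest dots are TU fish 48 at 1 dpci (5.91 CPM) and uninjured AB fish 7 (4.95 CPM).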

How the data were processed

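Libraries from 61 ventricles were sequenced by QuantSeq (FWD). Per the study's methods and the submitters' processing notes, reads were demultiplexed with bcl2fastq 2.20.0, trimmed with Trim Galore 0.6.4, then mapped to GRCz11 and counted with STAR 2.7.6a. The deposited counts per gene carry no normalization and were tested here, and a second deposited table gave gene positions only. edgeR 4.0.16 in R 4.3.3 was run with TMM factors, a trended dispersion and 1 mean per strain and stage over all libraries. Genes reaching 1 CPM in 1 or more libraries entered (16890), and a call means a Benjamini-Hochberg adjusted p below 0.05 over them. The SE is the log2 fold change divided by the root of F. The scripts were tested on simulated data. A fold against a group at 0 used 3 counts per library. Log2 CPM for correlations and pictures had a prior count of 2. Each library is 1 fish, and p-values weigh differences of group means against the spread between fish of a group, estimated jointly over all groups.

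All 10 genes were described in every comparison. From each pathway list up to 3 called genes with the largest change were named, and for isg15, stat1b, irf1b and ifit16 the 3 most alike genes. The members and lists were chosen with earlier results of these data known. Alternatives used DESeq2 1.42.0 with or without 1 RUVg factor, its size factors, other filters, no mitochondrial genes, a fold change above 2, or fewer libraries. Leaving out SAT fish 37 with TU fish 48, and the fit with 1 stage effect common to the strains, were chosen after seeing the data. When 1 library was left out, contrasts of its groups were refitted with the normalization and dispersion trend kept. Of the comparisons of a strain with the others, only those of its own strain were refitted. Without SAT fish 37 and TU fish 48, normalization and dispersion were estimated anew. Python 3.11.15 gave the descriptive values.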

Additional observations from a re-analysis of the deposited data

Results flagged for a closer look

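The stage differences of isg15 varied between strains (edgeR interaction F-test, adjusted p = 0.0419). The names of NA and TU were not stable across stages. Without these strains the adjusted p of that test was 0.77, where 0.0651% of all genes passed. The means at 1 dpci were above those of uninjured hearts in SAT, TL, TU and WIK, and below them in AB, KCL and NA. They were nearly equal in WIK (0.777 and 0.736 CPM) and KCL (2.86 and 2.93 CPM). In TU the higher mean rested on fish 48 (34 CPM), since fish 54 had 4.13 CPM, against 5.65 to 6.41 CPM in uninjured TU fish. Without SAT fish 37 and TU fish 48 the adjusted p was 0.23, and leaving out any of 20 of the 61 libraries alone also ended the call.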

How the results depend on the processing

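Of 856 values of single genes under the alternatives, 704 kept their direction and their side of the threshold, and 22 more that passed in neither fit changed sign. Without a filter on low counts, 7 of the 10 genes passed between strains in uninjured hearts, 5 at 7 dpci and 8 in the interaction, with 29 calls within strains and 35 of a strain against the others. Of all genes 12.1%, 12.7% and 8.65% passed in that fit, and 3.27% and 3.36% of the tests within and between strains. With at least 1 CPM in 3 libraries, 2 passed at 7 dpci against uninjured hearts, 2 between strains at 7 dpci and 3 in the interaction, where 8.02%, 17% and 4.93% of all genes did. DESeq2 gave 2, 3 and 5 for these, where 7.26%, 16.5% and 8.55% of all genes passed, and 7 calls of a strain against the others (2.8% of all tests).

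With 1 RUVg factor, 1 gene passed at 1 dpci and 2 at 7 dpci against uninjured hearts, 0 at 7 against 1 dpci, 5 between strains in uninjured hearts, 2 at 7 dpci and 6 in the interaction, where 0.61%, 4.7%, 0.971%, 15.6%, 16% and 7.06% of all genes passed. In DESeq2, genes given no adjusted p are counted as not passing, among them mxa at 7 against 1 dpci with the RUVg factor. The log2 fold changes at 1 dpci against uninjured hearts with that factor were −2.74 for irf1b and −0.68 for ifi35, and 0.14 for ifi35 at 7 against 1 dpci. A fold change above 2 left 1 gene at 1 dpci against uninjured hearts and 7 calls within strains, against 10.9% of all genes and 2.49% of all tests. Without mitochondrial genes 2 passed between strains at 7 dpci and 4 in the interaction (10.8% and 4.64% of all genes). With 1 stage effect common to the strains, 0 passed at 7 dpci against uninjured hearts.

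Without NA and TU, 0 genes passed at 7 dpci against uninjured hearts, 2 at 7 against 1 dpci, 1, 3 and 0 between strains in uninjured hearts, at 1 dpci and at 7 dpci, and 0 in the interaction, with 1 call within strains and 7 of a strain against the others. The shares over all genes were 6.22%, 18.5%, 9.19%, 7.37%, 5.96% and 0.0651%, and 2.38% and 2.26% of all tests within and between strains. The correlation of ifit16 with mdh1ab was then 0.17. Over all 61 libraries the correlation with mdh1ab was −0.25, −0.12 and 0.13 for isg15, stat1b and irf1b in place of ifit16. Without the 6 libraries with conflicting time labels, 1 passed between strains in uninjured hearts, 0 in the interaction and 4 within strains (10.2%, 1.79% and 2.35% of all genes or tests). Without SAT fish 37 and TU fish 48, 1 passed between strains at 1 dpci, 0 in the interaction, 7 within strains and 6 of a strain against the others (12.6%, 5.68%, 3.15% and 3.12%). At 1 dpci the log2 fold changes against the other strains were then −0.80 for stat1b and −1.58 for rsad2 in SAT and −0.51 for ifit8 in TU. Leaving out 1 fish at a time gave −0.98 (without SAT fish 37) to 3.59 for stat1b, −1.94 (without SAT fish 37) to 5.23 for rsad2 and −1.44 (without TU fish 48) to 6.26 for ifit8. For rsad2, SAT fish 36 and every NA and WIK fish at 1 dpci had 0 counts. For ifit8, TU fish 54 and every NA, WIK and KCL fish at 1 dpci had 0 counts. The sizes and signs for rsad2 and ifit8 thus depend on the model.

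Leaving out 1 library at a time gave 2 to 3 genes at 1 dpci and 1 to 2 at 7 dpci against uninjured hearts, 3 to 4 at 7 against 1 dpci, 1 to 3, 5 to 7 and 0 to 2 between strains in uninjured hearts, at 1 dpci and at 7 dpci, and 0 to 3 in the interaction. Within strains it gave 6 to 13 calls, and 8 to 14 of a strain against the others. For the latter only the comparisons of the left-out fish's own strain were refitted. The causes were not tested.

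With the fish number as a replicate block, 2 genes passed between strains in uninjured hearts, as without it, with irf7 (adjusted p = 0.046) in place of ifit16 (0.198). These fish share only a number, and no pairing was stated. Motifs in promoters were not analysed here. Counts of 73 for ifit8, 113 for rsad2 and 169 for ifit16 over 61 libraries limit what could be detected for these genes.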
